A study of Rattus norvegicus with 6 samples.

Results

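The miR-125 family was examined in small RNA libraries from rat brain through 5 mature strands, rno-miR-125a-5p, rno-miR-125a-3p, rno-miR-125b-5p, rno-miR-125b-1-3p and rno-miR-125b-2-3p. They were chosen by name, so that both arms of the miR-125a hairpin and of the miR-125b hairpins are covered, and all 5 had a row among the 775 miRNAs of the deposited count table. The libraries came from male Sprague-Dawley rats, 7 weeks old when bought, whose common carotid arteries were both tied off (2-vessel occlusion, 2VO), a model of vascular dementia that lowers blood flow to the brain for a long time. The 3 libraries of the 2VO group are from rats that received the vehicle alone (0.5% CMC-Na, 5 mL/kg), and the 3 libraries of the tilianin group are from 2VO rats that received tilianin, a flavonoid glycoside, at 40 mg/kg daily by gastric tube for 4 weeks in that vehicle. All 6 libraries thus carry the occlusion, and sham rats were not analysed here. The study's methods name brain tissue for the sequencing, and a figure legend of the study names cortical tissue. Nothing states that each library is 1 rat, so p-values measure only the spread between these libraries, which may be technical.

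miR-125 is the vertebrate counterpart of lin-4, the first microRNA described in the nematode, which together with let-7 times its larval development. In mammals each miR-125 gene lies in a cluster with a miR-99 or miR-100 gene and a let-7 gene, and the hairpins of a cluster can be cut from one primary transcript. A hairpin is trimmed by Drosha and Dicer to a duplex, of which one arm (the guide, here the 5p arm) is usually kept in Argonaute to repress mRNAs that match its seed, while the other arm (the passenger, here 3p) is mostly degraded. In brain, miR-125b is known for promoting neuronal differentiation and for acting with the fragile X protein at synapses, where it represses the NMDA receptor subunit NR2A, and miR-125a is known as a regulator of the postsynaptic scaffold protein PSD-95.

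The sequences show what the strands share and what separates the loci. RefSeq (GRCr8) holds a mature sequence for each of the 5 strands. They are printed 5′ to 3′ with the seed, bases 2 to 8, in capitals, together with miR-351-5p, which has the same seed, and miR-3588, a miRNA of the opposite DNA strand at the miR-125b-2 gene, which enters the results below.
rno-miR-125a-5p: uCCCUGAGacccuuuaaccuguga
rno-miR-125b-5p: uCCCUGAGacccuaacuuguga
rno-miR-351-5p: uCCCUGAGgagcccuuugagccuga
rno-miR-125a-3p: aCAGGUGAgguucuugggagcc
rno-miR-125b-1-3p: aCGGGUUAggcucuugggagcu
rno-miR-125b-2-3p: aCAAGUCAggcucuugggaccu
rno-miR-3588: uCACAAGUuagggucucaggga

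The guide strands of miR-125a (24 bases) and miR-125b (22 bases) are identical over their first 13 bases, and miR-351-5p (25 bases) shares the first 8 of them. Of the 693 mature miRNAs in the RefSeq table, these 3 are the ones with the seed CCCUGAG. The 3 passenger strands have 3 different seeds, each held by no other miRNA of that table. The passenger strands of miR-125b-1 and miR-125b-2 are identical at 18 of 22 positions and differ by G3A, G4A, U7C and G20C, counted from the 5′ end with the base of miR-125b-1 first. Since the differences include 3 seed positions, the passenger rows separate the loci, whereas the letters of miR-125b-5p stand whole in the miR-125b-1 hairpin (positions 15 to 36 of 87) and are annotated at the miR-125b-2 gene too, so that the single 5p row holds reads of both.

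In GRCr8 the miR-125a strands lie on the plus strand of chromosome 1 (5p at chr1:67350689-67350712, 3p at chr1:67350727-67350748), in a gene that Spaca6 spans. The miR-125b-1 passenger lies on the plus strand of chromosome 8 (chr8:50850090-50850111), in a gene that Mir100hgl and Lnc215 span. miR-125b-5p and the miR-125b-2 passenger lie on the plus strand of chromosome 11 (chr11:29732588-29732609 and chr11:29732627-29732648), in a gene that the non-coding LOC103693508 spans. The clusters read miR-99b, let-7e and miR-125a on chromosome 1, miR-100, let-7a-2 and miR-125b-1 on chromosome 8, and miR-99a, let-7c-1 and miR-125b-2 on chromosome 11. The build behind the deposited counts is not given in the sources used here, and these positions belong to the sequences alone.

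Total counts per library were 7175872 to 13198776, and 454 miRNAs with at least 10 counts in all were tested. Levels are CPM, counts scaled to 1000000 per library, after TMM scaling. The tissue label was checked with 4 neuronal miRNAs (miR-124-3p, miR-9a-5p, miR-128-3p and miR-132-3p), whose summed level was 83440 to 159800 CPM, so that neuronal RNA was present in every library. Tilianin replicate 2 stood apart. Its Spearman correlations with the other libraries over the tested miRNAs were 0.936 to 0.957, against 0.983 to 0.992 among the other 5, and it held the lowest value of the 6 libraries for 33.3% and the highest for 33.0% of the tested miRNAs. Results that rest on it are given with and without it.

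The guide strands of the family were among the most abundant miRNAs of these brains, and neither differed between the groups beyond the spread of the libraries. rno-miR-125b-5p, the most abundant member, measured 63030, 68920 and 62660 CPM across replicates 1 to 3 of 2VO, as against 76470, 46330 and 60260 CPM across replicates 1 to 3 of tilianin. The 2VO libraries were close together, and the tilianin libraries lay both above and below them. It ranked 4 among all miRNAs in 5 libraries and 6 in tilianin replicate 2. The 2VO libraries averaged 64870 ± 3511 CPM and the tilianin libraries 61020 ± 15080 CPM (SD, n = 3 each). The log2 fold change, tilianin over 2VO, was -0.09 (standard error 0.203, 95% interval -0.57 to 0.39), with an adjusted p of 0.911 from edgeR's quasi-likelihood test.

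rno-miR-125a-5p measured 40520, 50090 and 46800 CPM across replicates 1 to 3 of 2VO, as against 60150, 31440 and 38070 CPM across replicates 1 to 3 of tilianin. Tilianin replicate 1 was the highest and replicate 2 the lowest of all 6 libraries, as for miR-125b-5p. Its rank was 5 to 7 in 5 libraries and 11 in tilianin replicate 2. The 2VO libraries averaged 45800 ± 4864 CPM and the tilianin libraries 43220 ± 15030 CPM (SD, n = 3 each), and the log2 fold change was -0.08 (standard error 0.257, 95% interval -0.69 to 0.52, adjusted p = 0.927, edgeR). Without tilianin replicate 2 the log2 fold changes of miR-125a-5p and miR-125b-5p were 0.12 and 0.09, and neither passed the test (unadjusted p = 0.592 and 0.617, edgeR).

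**Figure D1:**
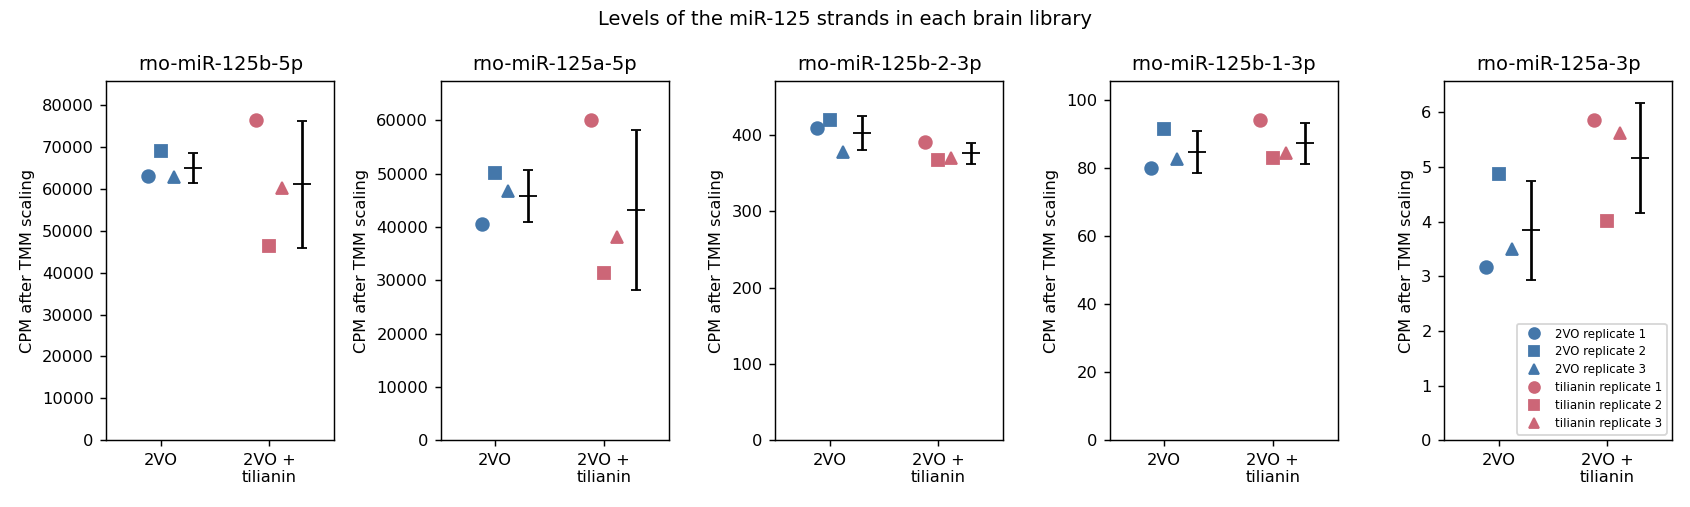
Level of each miR-125 strand in CPM after TMM scaling (vertical axis, from 0, a different scale in each panel) in the 3 libraries of the 2VO group (blue) and of the tilianin group (red). The marker shape gives the replicate number and the black bar the mean ± SD of a group; the guide strands spread most in the tilianin group, with replicate 1 highest and replicate 2 lowest.

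Together, miR-125a-5p and miR-125b-5p held between 7.04% (95% Wilson interval 7.02 to 7.06%, tilianin replicate 2) and 13.3% (13.3 to 13.3%, tilianin replicate 1) of all counts of a library. The group means were 11.3 ± 0.410% in the 2VO group and 10.3 ± 3.13% in the tilianin group (SD, n = 3 each), a difference of -0.19 on the log2 scale (p = 0.7, two-sided exact permutation test, whose smallest possible p with 3 libraries against 3 is 0.1). In all, 20 ratios and shares were compared in this way, and the smallest p adjusted over them (Benjamini-Hochberg) was 0.333. Some strands enter both as a ratio and as a share, so the 20 are not separate comparisons. Without tilianin replicate 2 the difference in the log2 share of both guides was 0.06. Adding miR-351-5p, the third strand with this seed, gave group means of 11.4 ± 0.415% and 10.3 ± 3.14%.

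The ratio between the paralogues differed by less than its spread between libraries. miR-125a-5p stood to miR-125b-5p as 0.643, 0.727 and 0.747 across replicates 1 to 3 of 2VO, as against 0.787, 0.679 and 0.632 across replicates 1 to 3 of tilianin. Every library thus held more miR-125b-5p than miR-125a-5p. The log2 ratio differed by -0.02 between the groups (p = 0.9, two-sided exact permutation test), with standard deviations of 0.115 and 0.161 within the groups. The levels of the paralogues went together over the 6 libraries (Pearson's r = 0.947, Spearman's rho = 0.943), a description of libraries that share their scaling. Leaving out tilianin replicates 1 and 2, the libraries farthest from the median, gave r = 0.839.

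The passenger strands were far less abundant, and the order miR-125b-5p, miR-125a-5p, miR-125b-2-3p, miR-125b-1-3p, miR-125a-3p was the same in all 6 libraries. Each count is a read on a mature strand of like length, so no division by length was made, and the order is one of counts. rno-miR-125b-2-3p, the passenger of the chromosome 11 locus, measured 409.5, 420.2 and 377 CPM across replicates 1 to 3 of 2VO, as against 391, 367 and 369.6 CPM across replicates 1 to 3 of tilianin. The highest tilianin library lay above the lowest 2VO library, so the groups overlapped. Its log2 fold change was -0.10 (standard error 0.172, 95% interval -0.50 to 0.31, adjusted p = 0.896, edgeR), from means of 402 ± 22.3 and 376 ± 13.4 CPM (SD, n = 3 each).

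rno-miR-125b-1-3p, the passenger of the chromosome 8 locus, measured 79.99, 91.5 and 82.7 CPM across replicates 1 to 3 of 2VO, as against 94.3, 83.01 and 84.5 CPM across replicates 1 to 3 of tilianin. The values of the groups were interleaved, and the log2 fold change of 0.04 (standard error 0.170, 95% interval -0.36 to 0.44, adjusted p = 0.941, edgeR) turned to -0.02 when libraries were scaled by their totals alone. rno-miR-125a-3p was the rarest member, with 29, 63 and 27 counts across replicates 1 to 3 of 2VO, as against 54, 26 and 46 counts across replicates 1 to 3 of tilianin. These are 3.16, 4.86 and 3.49 CPM against 5.86, 4.00 and 5.62 CPM, so that tilianin replicate 2 lay below 2VO replicate 2. The log2 fold change was 0.42 (standard error 0.301, 95% interval -0.29 to 1.13, adjusted p = 0.783, edgeR), the widest interval of the 5 strands.

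At the criterion of the study's methods, an unadjusted p-value below 0.05 with an absolute log2 fold change above 1, 0 of the 5 strands were called by edgeR's quasi-likelihood test, against 5.73% of all tested miRNAs. DESeq2's Wald test and limma-voom called 0 as well, and 0 of the 5 had an unadjusted p below 0.05 with any of the 3 tools. The groups overlapped for all 5, whereas they did not overlap for 9.69% of all tested miRNAs. The median log2 fold change was -0.08 over the 5 strands and -0.03 over all tested miRNAs. For 4 of the 5 strands the 95% interval lay within 1 log2 unit either way, and for miR-125a-3p it did not.

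**Figure D2:**
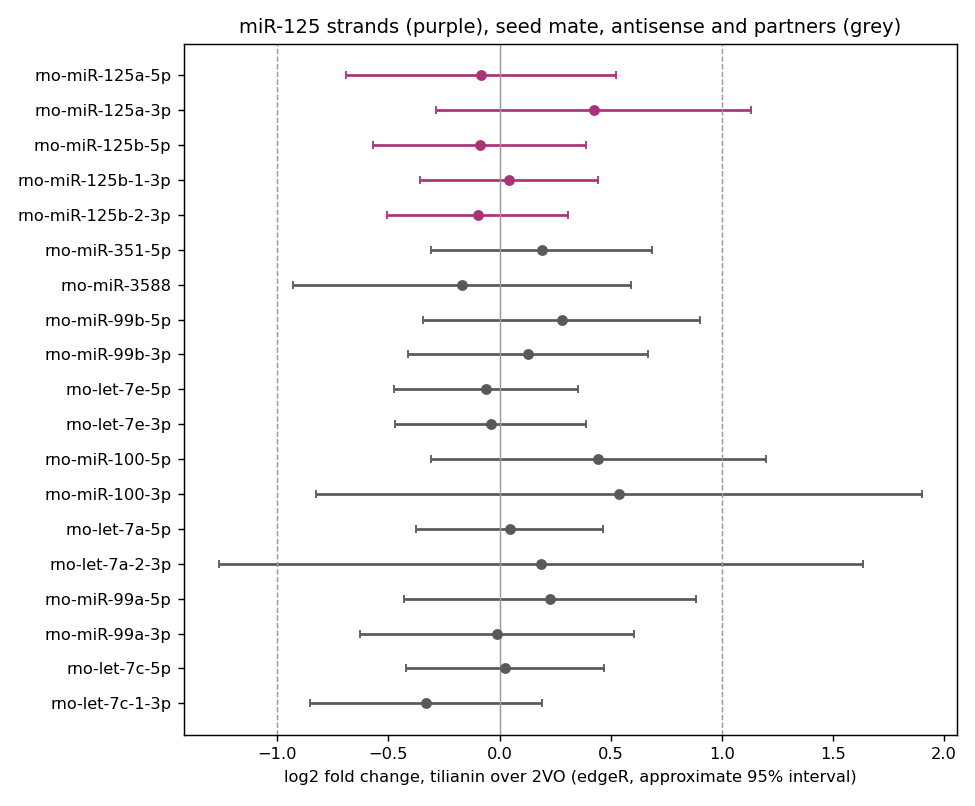
Log2 fold change, tilianin over 2VO (horizontal axis), with its approximate 95% interval from edgeR's quasi-likelihood fit, for the 5 miR-125 strands (purple) and for miR-351-5p, miR-3588 and the cluster partners (grey); dashed lines mark 1 log2 unit. Every interval crosses 0, and the widest are those of miRNAs with few counts, miR-100-3p and let-7a-2-3p.

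The share of reads on each arm compares guide and passenger within a library and needs no scaling between libraries. In the miR-125a hairpin, 5p reads outnumbered 3p reads 12820-, 10300- and 13400-fold across replicates 1 to 3 of 2VO, as against 10260-, 7851- and 6781-fold across replicates 1 to 3 of tilianin. All 3 tilianin libraries lay below the 2VO libraries, but tilianin replicate 1 and 2VO replicate 2 nearly touched, with log2 ratios of 13.31 and 13.32. The log2 ratio differed by -0.56, tilianin minus 2VO, and did not pass the test (standard error 0.279, 95% interval -1.18 to 0.05, limma over 175 arm pairs, unadjusted p = 0.0690, adjusted p = 0.974). The exact permutation test gave p = 0.1, the smallest it can give. Among all arm pairs, 2.29% had an unadjusted p below 0.05 and 8.57% had groups that did not overlap. Without tilianin replicate 1 the difference was -0.73, with an unadjusted p of 0.0349 and an adjusted p of 0.632 (limma), in a fit where 5.26% of 171 pairs had an unadjusted p below 0.05. It was -0.53 without tilianin replicate 2 and -0.43 without tilianin replicate 3 (unadjusted p = 0.104 and 0.156, limma). The ratio rests on 26 to 63 reads of the 3p arm per library, so the 3p arm held as little as 0.00746% (95% Wilson interval 0.00513 to 0.0109%, 2VO replicate 3) and at most 0.0148% (0.0111 to 0.0197%, tilianin replicate 3) of the hairpin's reads.

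The miR-125b hairpins had a larger share of passenger reads than the miR-125a hairpin in all 6 libraries. Both passenger rows together made up 0.771, 0.737 and 0.729% of the miR-125b reads across replicates 1 to 3 of 2VO, as against 0.631, 0.961 and 0.748% across replicates 1 to 3 of tilianin. Tilianin replicate 1 had the lowest (95% Wilson interval 0.613 to 0.649%) and tilianin replicate 2 the highest share (0.927 to 0.997%), with the 2VO libraries between. The log2 ratio of miR-125b-5p to miR-125b-1-3p differed by -0.16 (standard error 0.174, adjusted p = 0.974, limma), and that to miR-125b-2-3p by -0.02 (standard error 0.181, adjusted p = 0.992, limma). Without tilianin replicate 2 these differences were -0.010 and 0.15.

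Of the reads on the 3p rows of miR-125b, the chromosome 11 locus gave 83.7, 82.1 and 82.0% across replicates 1 to 3 of 2VO, as against 80.6, 81.5 and 81.4% across replicates 1 to 3 of tilianin. The means were 82.6 ± 0.919% and 81.2 ± 0.519% (SD, n = 3 each). All tilianin libraries lay below the 2VO libraries, by little: the 95% Wilson interval of tilianin replicate 2, 80.1 to 82.9%, spans the values of 2VO replicates 2 and 3. The log2 ratio of miR-125b-1-3p to miR-125b-2-3p was 0.14 higher in the tilianin group (p = 0.1, two-sided exact permutation test, the smallest it can give). How the 5p reads divide between the loci cannot be read from these rows.

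**Figure D3:**
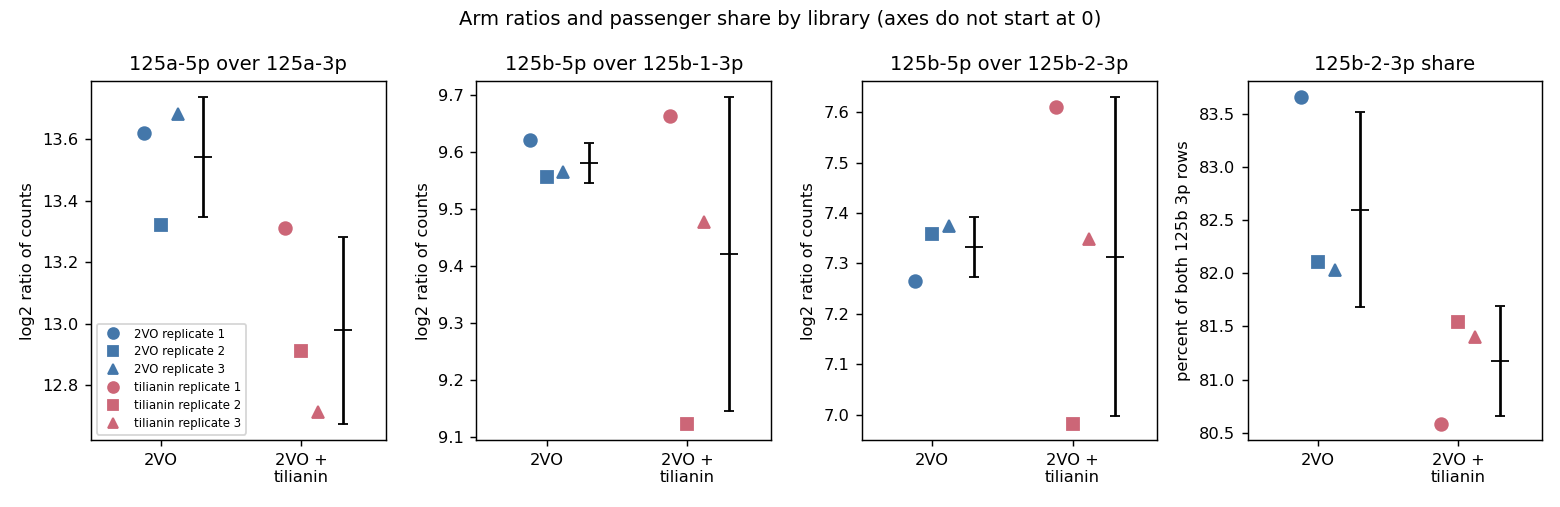
Log2 ratio of 5p to 3p counts (0.5 added to each) for the miR-125a hairpin and for miR-125b-5p over each of its passenger rows, and the percent of both miR-125b passenger rows held by miR-125b-2-3p, for each library (blue 2VO, red tilianin, shape by replicate, bar mean ± SD, axes not from 0). For miR-125a the tilianin libraries lie at 12.71 to 13.31 and the 2VO libraries at 13.32 to 13.68, and tilianin replicate 2 is lowest for both miR-125b ratios.

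In tilianin replicate 2 both guide strands lay further below the 2VO mean than any passenger strand. Its miR-125a-5p and miR-125b-5p were 0.686 and 0.714 times the 2VO mean, whereas its miR-125a-3p, miR-125b-1-3p and miR-125b-2-3p were 1.04, 0.980 and 0.911 times the 2VO mean, and its miR-351-5p, with the same seed as the guide strands, was 1.011 times. The ratio of arms was more extreme in other tilianin libraries for some hairpins: that of miR-125a was lowest in replicate 3, where miR-125a-5p and miR-125a-3p were 0.831 and 1.46 times the 2VO mean, and that of miR-125b-5p to miR-125b-2-3p was highest, at 195.5-fold, in replicate 1. Tilianin replicate 2 had 21660 CPM summed over 4 miRNAs of the Hox clusters, which mark hindbrain and spinal cord (89.8 to 488.6 CPM in the other 5 libraries, with miR-196b-5p at 0 counts in all 6). It had 3885 CPM of miR-128-3p and 85.2 CPM of miR-132-3p, neuronal miRNAs at 17570 to 28700 and 395 to 698.5 CPM in the other libraries. The other neuronal miRNAs, miR-124-3p and miR-9a-5p, were lowest there by less, at 55800 and 23670 CPM against 74150 to 98570 and 25970 to 34980 CPM. Summed markers of choroid plexus (1077 CPM over 3), red blood cells (880.6 CPM over 3), leukocytes (745.5 CPM over 3) and muscle (415 CPM over 3) were also highest there, against at most 347.6, 406, 495.7 and 163 CPM elsewhere. Single members made up most of these sums: miR-204-5p (1064 CPM), miR-486 (876.4 CPM), miR-142-5p (709 CPM) and miR-133a-3p (358.1 CPM). In the muscle list miR-1-3p was at 0 CPM there. The 3 oligodendrocyte markers of tilianin replicate 2 summed to 50.4 CPM (17.5 to 35.3 elsewhere), of which miR-338-3p held 49.4 CPM. Endothelial (2) and mural (4) markers of that library, 6509 and 7.08 CPM, lay within the range of the other libraries, 5372 to 8553 and 2.16 to 7.69 CPM. Across all libraries, the Hox, red blood cell, leukocyte and mural sums were also higher in each tilianin than in each 2VO library (lowest tilianin 321, 338.1, 457 and 4.89 CPM, highest 2VO 149, 198.5, 455.7 and 4.14 CPM). In these lists miR-10a-5p, miR-10b-5p, miR-486, miR-223-3p and miR-214-3p were themselves higher in each tilianin than in each 2VO library, whereas miR-144-3p, miR-142-3p, miR-142-5p, miR-143-3p and miR-145-5p overlapped between the groups, and miR-451-5p, miR-196a-5p and miR-199a-3p stayed below 1 CPM. In the choroid plexus list miR-211-5p (at least 3.30 against at most 1.78 CPM) and miR-204-3p (at least 0.854 against at most 0.617 CPM) were higher in each tilianin library too. For miR-204-3p the values compared were near the limit for a count of 0 (0.227 to 0.418 CPM), with 0 CPM in 2VO replicate 1. The more abundant miR-204-5p overlapped, at 117.8 CPM in tilianin replicate 3. Over all tested miRNAs, 9.69% had groups that did not overlap. The part of these cell type markers in the miR-125 levels was not tested, and in bulk tissue fewer cells of a type and less RNA per cell cannot be told apart.

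The cluster partners are mature strands of the other hairpins in the miR-125 clusters, and no primary transcript was measured. Of the 12 partner strands listed, 12 were tested and 0 were called by edgeR (5.73% of all tested miRNAs), with 8 log2 fold changes above 0 and 4 below. DESeq2's Wald test and limma-voom called 0, and none had an unadjusted p below 0.05 with any of these tools. Their median was 0.09. let-7c-1-3p, the passenger of the let-7c-1 hairpin, was the 1 partner of 12 whose groups did not overlap, a share near the 9.69% of all tested miRNAs, with 2VO values of 7.19, 7.64 and 7.12 CPM, above tilianin values of 6.41, 5.54 and 5.49 CPM, from 36 to 99 counts (log2 fold change -0.33, standard error 0.222, adjusted p = 0.746, edgeR).

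miR-99b-5p, miR-99a-5p and miR-100-5p, guides of a family of their own, stood apart from the miR-125 guides in tilianin replicate 2. Only the ratio of miR-99b-5p to miR-125a-5p is within a single cluster. The miR-125b-5p row pools reads of the chromosome 8 and chromosome 11 loci, so the ratios to it are not. On chromosome 1, miR-99b-5p stood to miR-125a-5p as 0.536 to 0.807 in the other 5 libraries and as 1.79 in tilianin replicate 2, where miR-99b-5p was at 56120 CPM. miR-100-5p, of the chromosome 8 cluster, stood to the pooled miR-125b-5p row as 0.382 to 0.503 in the other 5. In tilianin replicate 2 the ratio was 1.34, with miR-100-5p at 61840 CPM. miR-99a-5p, of the chromosome 11 cluster and the most abundant partner, stood to the same pooled row as 2.25 to 3.17 in the other 5. In tilianin replicate 2 the ratio was 6.86, with miR-99a-5p at 318000 CPM. As groups the log2 ratios differed by 0.36, 0.48 and 0.30, within the spread of the tilianin libraries (p = 0.7, 0.7 and 0.9, two-sided exact permutation tests, adjusted p = 0.9 each over the 20 comparisons). Without tilianin replicate 2 the differences were -0.12, -0.06 and -0.18. let-7e-5p, the let-7 strand of the miR-125a cluster, was, like miR-125a-5p, lowest in tilianin replicate 2, at 820.7 CPM against 911 to 964 CPM elsewhere, and its log2 ratio to miR-125a-5p differed by 0.07 (p = 0.8, exact permutation test). let-7a-5p and let-7c-5p, at 3628 to 4525 and 4777 to 6489 CPM, also come from let-7 genes outside these clusters.

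**Figure D4:**
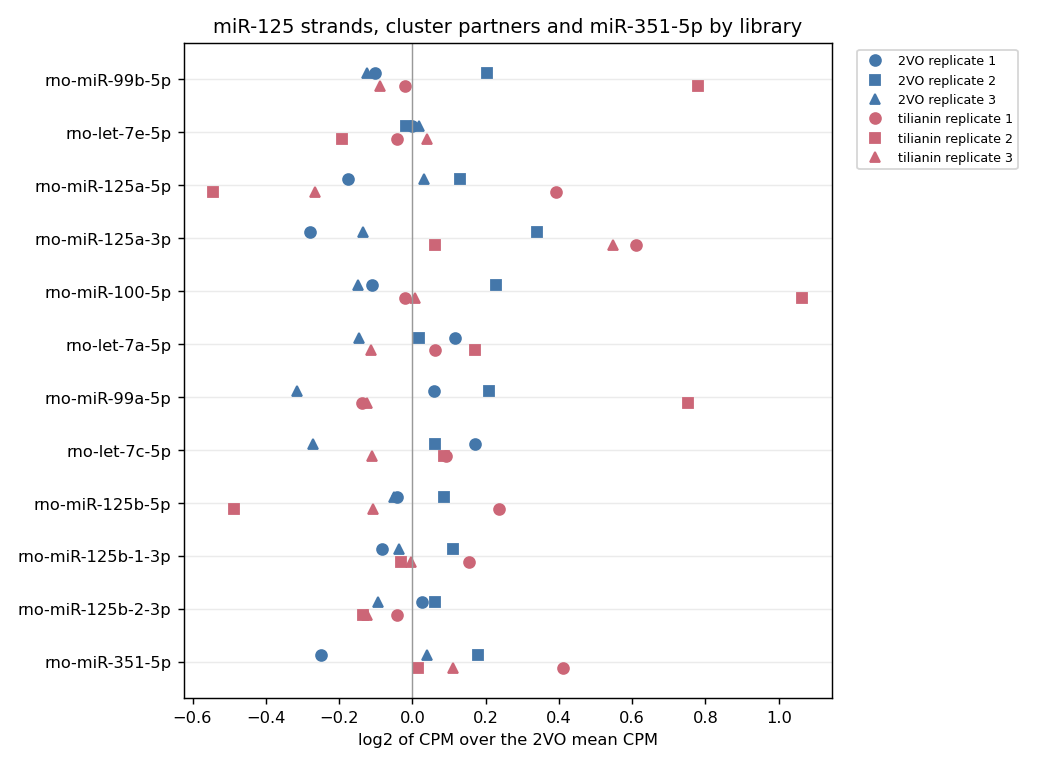
Level of each miR-125 strand, of the 5p strands of its cluster partners and of miR-351-5p in each library, as log2 of its CPM over the mean CPM of the 2VO group (horizontal axis; blue 2VO, red tilianin, shape by replicate). In tilianin replicate 2 (red squares) miR-100-5p lies at 1.06, miR-99b-5p at 0.78 and miR-99a-5p at 0.75, and miR-125a-5p and miR-125b-5p at -0.54 and -0.49.

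miR-351-5p, a rodent miRNA of a cluster with miR-322 and miR-503 on the X chromosome (chrX:137725157-137725181, minus strand, GRCr8), brings the same seed at a much lower level. It measured 277, 372 and 337.9 CPM across replicates 1 to 3 of 2VO, as against 437, 332 and 355 CPM across replicates 1 to 3 of tilianin, or 0.267 to 0.426% of the counts of the 3 strands with this seed. Its groups overlapped. The change on the log2 scale was 0.19 (standard error 0.212, adjusted p = 0.849, edgeR). Relative to miR-125b-5p it was higher in each tilianin library than in each 2VO library, with a difference of 0.31 on the log2 scale (p = 0.1, exact permutation test, the smallest it can give, adjusted p = 0.333 over the 20 comparisons). Without tilianin replicate 2 the difference was 0.20 (p = 0.3, exact permutation test). Groups that did not overlap were also seen for 9.69% of all tested miRNAs and 8.57% of all arm pairs. The other arm of the miR-351 hairpin, miR-351-3p, had 9 to 22 counts per library and a log2 fold change of 0.05 (standard error 0.428, adjusted p = 0.969, edgeR).

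Over the 269 tested miRNAs with a mean of at least 10 CPM, those whose log2 levels were most like each member over the 6 libraries were listed, as descriptions over libraries that share their scaling. For miR-125a-5p they were miR-3588 (r = 0.981), miR-455-3p (r = 0.966) and miR-125b-5p (r = 0.947). For miR-125b-5p they were miR-676 (r = 0.957), miR-29c-5p and miR-346 (r = 0.956 each). With tilianin replicates 1 and 2 left out these became 0.916, 0.998 and 0.839 for miR-125a-5p, and 0.941, 0.873 and 0.778 for miR-125b-5p. The passenger strands had other neighbours. For miR-125b-2-3p they were miR-7b, miR-98-5p and miR-7a-5p (r = 0.953, 0.927 and 0.922). For miR-125b-1-3p they were miR-351-5p, miR-191a-5p and miR-342-3p (r = 0.916, 0.843 and 0.784), and for miR-125a-3p miR-351-5p, miR-125b-1-3p and miR-322-3p (r = 0.860, 0.789 and 0.710). Without the 2 of the 6 libraries farthest from the median, r was -0.36 for miR-191a-5p with miR-125b-1-3p, and 0.111 for miR-322-3p and 0.477 for miR-125b-1-3p with miR-125a-3p, so those relations rested on these libraries. It fell to 0.625 for miR-7a-5p with miR-125b-2-3p and to 0.708 for miR-351-5p with miR-125a-3p. For the other neighbours of the passenger strands r was then 0.778 to 0.978.

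The miRNA with the highest Pearson's r to miR-125a-5p over all 6 libraries lies opposite miR-125b-2, although by Spearman's rho (1 against 0.943), and without tilianin replicates 1 and 2, miR-455-3p was closer. The mature sequence of miR-3588 printed above is the reverse complement of miR-125b-5p at 22 of 22 positions, at the same bases of chromosome 11 on the minus strand, and shares 13 bases in a row with the reverse complement of miR-125a-5p. It measured 108, 175 and 108 counts across replicates 1 to 3 of 2VO, as against 158, 51 and 80 counts across replicates 1 to 3 of tilianin. Per 1000000 reads of miR-125b-5p these are 186.7, 195.98 and 222.98 in 2VO and 224.4, 169.5 and 162 in tilianin, with exact 95% Poisson intervals, for counting error only, of 183 to 269 in 2VO replicate 3 and 129 to 202 in tilianin replicate 3. After scaling, miR-3588 lay between 7.85 and 17.2 CPM and miR-125b-5p between 46330 and 76470 CPM, and both were lowest in tilianin replicate 2 and highest in tilianin replicate 1. The ratio did not differ between the groups beyond their spread (201.9 ± 18.8 and 185 ± 34.0 per 1000000, SD, n = 3 each, p = 0.5, two-sided exact permutation test). Whether the counting used strand is not given in the sources used here, and without strand, reads of miR-125b-5p and of its antisense partner cannot be told apart.

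**Figure D5:**
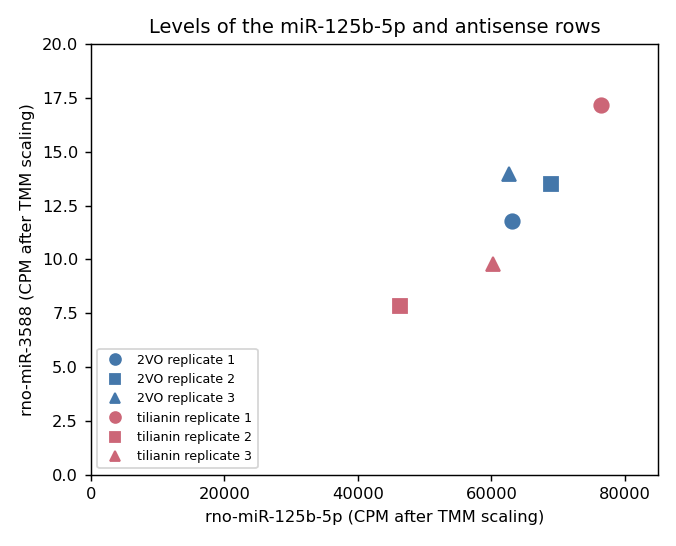
Level of miR-3588 (vertical axis) against that of miR-125b-5p (horizontal axis), both in CPM after TMM scaling and from 0, for the 6 libraries (blue 2VO, red tilianin, shape by replicate). Both are lowest in tilianin replicate 2, at 7.85 and 46330 CPM, and highest in tilianin replicate 1, at 17.2 and 76470 CPM.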

How the data were processed

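Small RNA libraries of 6 rat brain samples (TruSeq Small RNA kit) were analysed, 3 of the 2VO group and 3 of the tilianin group, mapped by the library code in the sample labels. The authors deposited raw read counts per mature miRNA without normalization. Per the labels, FastQC 0.11.2, Trimmomatic 0.36, cutadapt 1.14 and DESeq2 1.12.4 were used, and the aligner, miRNA reference, build and counting program are not given in the sources used here.

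Rows whose 6 counts summed to 10 or more were fitted together with edgeR 4.0.16 (TMM scaling, quasi-likelihood test, R 4.3.3), and p-values were adjusted over all tested miRNAs with the Benjamini-Hochberg method. Approximate standard errors and 95% intervals were derived from each F statistic and fold change. Arm ratios, log2((5p + 0.5)/(3p + 0.5)), were fitted over all 175 arm pairs with limma 3.58.1. Single ratios and shares went through exact permutation tests, two-sided. Alternatives were other scalings, DESeq2 1.42.0, limma-voom, other filters, a replicate block and each library left out. The code was tested on simulated data. The Wilson and Poisson intervals cover counting error only, since no molecular identifiers are mentioned. The edgeR and limma intervals rest on the spread between libraries. The limit for a count of 0, 3 counts, is 0.227 to 0.418 CPM. Replicates differed by more than sampling noise.

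The named miRNAs are the 5 members, miR-351, the cluster partners, for each member the 3 miRNAs with the highest Pearson correlation of log2(CPM + 1), and cell type markers (miR-9a-5p read for miR-9-5p). Ratios with miR-3588 and with the partners were chosen after their values were seen. The members and lists were chosen with earlier results of these data known. Mature sequences were copied from RefSeq (GRCr8).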

Additional observations from a re-analysis of the deposited data

How the results depend on the processing

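The count of called miR-125 strands and of called partners was 0 under every alternative run. Over all tested miRNAs, 26 were called, against 9 with limma-voom, 16 with filterByExpr, 13 with the replicate block and 12, 9 and 13 without 2VO replicate 1, 2 and 3 or 34, 13 and 29 without tilianin replicate 1, 2 and 3. No pairing of samples with the same replicate number was seen (deviations correlated at -0.12, 0.00917 and 0.297, and 2 of 6 samples correlated best with their own number). With 3 libraries in each group this check cannot exclude one. With the replicate block the smallest unadjusted p of a member was 0.279 (edgeR). Direction was not stable near 0. With library totals the log2 fold changes of miR-125b-1-3p, miR-351-3p, let-7a-5p and let-7c-5p were -0.020, -0.016, -0.027 and -0.044, with limma-voom that of let-7a-2-3p was -0.083, and that of miR-99a-3p was 0.00114 with DESeq2's size factors and 0.00447 with filterByExpr.

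With each library left out in turn, log2 fold changes changed sign for miR-125a-5p (-0.38 to 0.12), miR-125b-5p (-0.26 to 0.093), miR-351-3p (-0.21 to 0.34), miR-3588 (-0.55 to 0.066), miR-99b-5p (-0.041 to 0.44), miR-99b-3p (-0.027 to 0.32), let-7e-5p (-0.12 to 0.016), let-7e-3p (-0.067 to 0.016), miR-100-3p (-0.25 to 0.90), let-7a-5p (-0.030 to 0.11), let-7a-2-3p (-0.62 to 0.51), miR-99a-5p (-0.12 to 0.40), miR-99a-3p (-0.14 to 0.087) and let-7c-5p (-0.10 to 0.12). So did the log2 ratios of miR-125b-5p to miR-125b-2-3p (-0.17 to 0.15), miR-125a-5p to miR-125b-5p (-0.10 to 0.053), miR-99b-5p to miR-125a-5p (-0.12 to 0.75), let-7e-5p to miR-125a-5p (-0.069 to 0.32), miR-100-5p to miR-125b-5p (-0.062 to 0.84) and miR-99a-5p to miR-125b-5p (-0.18 to 0.63), and the log2 share of both guides (-0.40 to 0.057, and -0.40 to 0.058 with miR-351-5p). The log2 ratio of miR-125b-5p to miR-125b-1-3p was -0.28 to -0.010. The arm ratio of miR-125a was -0.73 to -0.43 and passed an unadjusted p of 0.05 in 1 of these fits, without tilianin replicate 1. Of the shifts above, the cause was not tested. In all, 165 of 172 values under other alternatives and 174 of 210 with a library left out kept direction and call. At 26 to 63 counts per library, miR-125a-3p is the member for which depth limits most.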
